A study of Mus musculus with 12 samples.

Results

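The uncoupling proteins and the genes used as markers of browning of white fat were followed in epididymal white adipose tissue (eWAT) through the rows of the expression table that carried the symbols Ucp1, Ucp2, Ucp3, Cidea, Ppargc1a, Prdm16, Dio2, Elovl3, Cox8b and Cox7a1. All 10 genes were present among the 23474 genes of the table. Expression is given as FPKM, the number of fragments of a gene corrected for transcript length and for the mapped fragments of the library, which allows levels of different genes to be set side by side.

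The table held 12 RNA-seq libraries, 3 in each of 4 groups, each from the eWAT of 1 male C57BL/6J mouse that was 17 weeks old after 12 weeks of feeding. The ND group received a normal diet, and the other groups a high-fat diet (HFD), given alone, with 0.25% (w/w) of an ethanol extract of green tea (GT) or with 3% (w/w) of Taeeumjowuitang (TJ), a Korean herbal medicine made from several plants that include Ephedrae Herba. The mice were housed at 24°C. Each group consisted of 10 mice, of which 3 gave a library, and males alone were studied.

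In brown fat, the inner mitochondrial membrane protein UCP1 lets protons return to the matrix without ATP being made, so that the energy of fuel oxidation is released as heat. Cold and the sympathetic nerves act on brown and beige adipocytes through beta-adrenergic receptors and cAMP, and the transcription factor PRDM16 and the coactivator PGC-1alpha (Ppargc1a) maintain their program of gene expression. UCP2 and UCP3 are relatives of UCP1 that do not make heat in the same way, with UCP2 abundant in macrophages and other immune cells and UCP3 in muscle and brown fat. Epididymal fat is among the depots of the mouse that brown least readily.

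One library stood apart before any comparison was made. ND replicate 1 held 99325 FPKM over 10 male germ cell markers and 23744 FPKM over 10 epididymis markers, whereas the other 11 libraries held 0.685 to 3047 and 0.231 to 1275 FPKM. Its 10 adipocyte markers summed to 4423 FPKM, against 20587 to 60737 FPKM in the others, its depth was about 9.77M fragments against 14.1M to 19.5M, and its FPKM values summed to 1002770 against 527904 to 725245. Comparisons with the ND group are therefore given with and without this library. In the other 11 libraries, the adipocyte markers matched the labelled tissue. The precision of every value rests on the spread between libraries, since FPKM values come with no estimate of counting error. That spread holds differences between mice and counting error together.

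Groups were compared with limma on log2(FPKM + 1), and genes entered the test when they averaged 1 FPKM or more over the libraries compared. A gene was called when its Benjamini-Hochberg adjusted p was under 0.05 and its fold change at least 1.5, and all limma values below have 3 libraries per group unless a library is said to be left out. TJ against HFD and GT against HFD share the HFD libraries, so their fold changes are not independent.

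**Figure D1:**
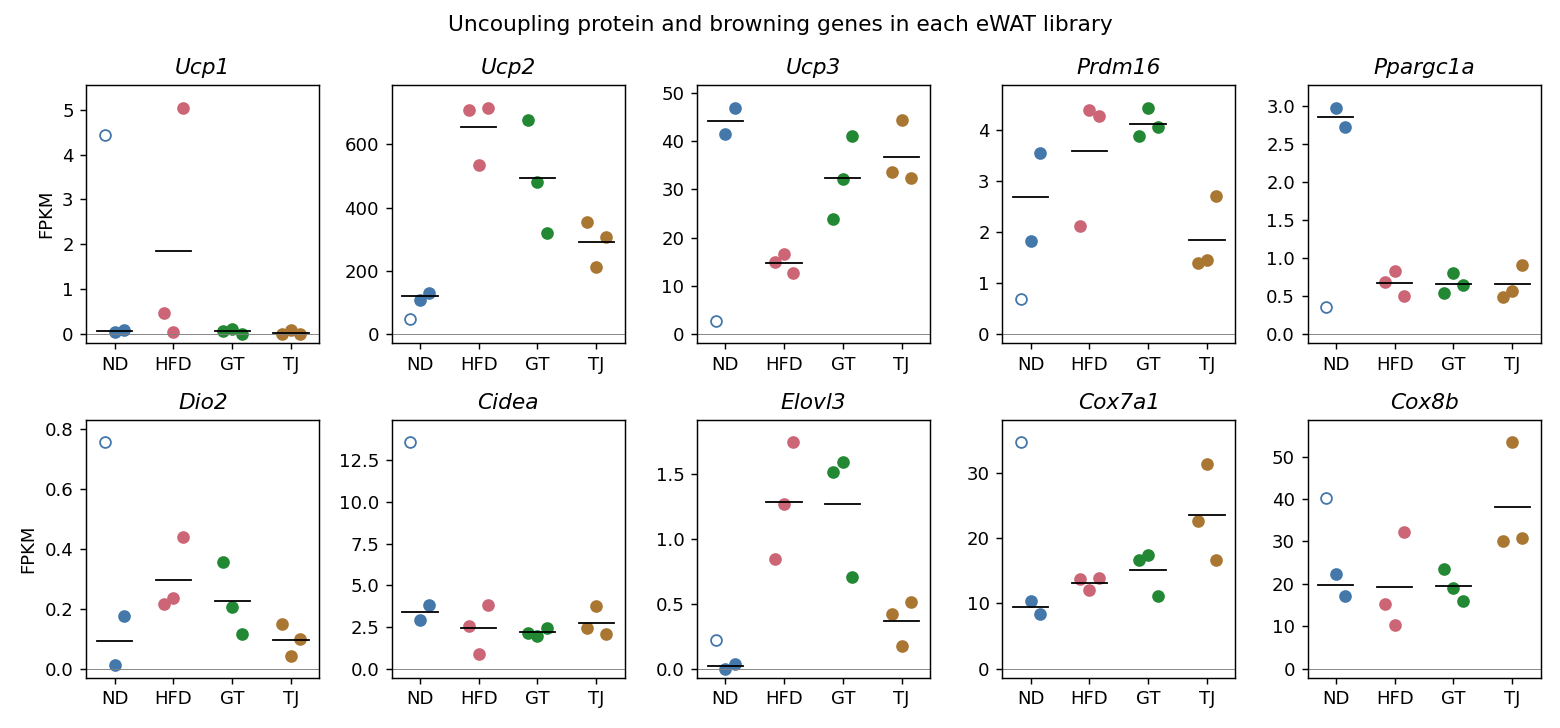
FPKM of the 10 genes in each library, by group (ND, HFD, GT, TJ). Points are single mice, bars are group means, and the open point is ND replicate 1, which the ND mean leaves out. Ucp3 was lowest in the HFD group apart from that library, the TJ libraries lay below the HFD libraries in Ucp2 and above them in Ucp3, and Ucp1 exceeded 1 FPKM in 2 libraries.

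The heat-producing uncoupler itself was barely detected in most libraries. Ucp1 (chr8:83290352-83298452, plus strand, on GRCm38 like all gene positions here) stood at 4.43, 0.0395 and 0.0773 FPKM in ND replicates 1 to 3. In the HFD replicates it was 0.475, 0.0322 and 5.05 FPKM. The GT replicates had 0.0620, 0.117 and 0 FPKM, and the TJ replicates 0, 0.0765 and 0 FPKM. HFD replicate 3 and ND replicate 1 were thus the only libraries above 1 FPKM, at about 117 and 70.8 fragments, while HFD replicate 1 had about 12.6 and each of the other 9 libraries about 3 or fewer. The high library of the HFD group made the group mean 1.85 ± 2.78 FPKM (SD, n = 3), and the values of all 4 groups overlapped. In HFD replicate 3 the germ cell markers summed to 29.8 FPKM and the epididymis markers to 0.713 FPKM, whereas HFD replicate 1 held 2083 FPKM of the former and HFD replicate 2 held 1275 FPKM of the latter. With so few fragments in the TJ and GT libraries, a difference in Ucp1 between them was not detectable at this depth. Ucp1 entered the test in HFD against ND through these 2 high libraries alone, with a log2 fold change of 0.20 (SE 0.95, limma adjusted p = 0.916), and lay under the filter in the other comparisons. Its share of the summed FPKM of Ucp1, Ucp2 and Ucp3 was 8.12% in ND replicate 1 and at most 0.687% in the others.

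Ucp2, by contrast, was the most abundant of the 10 genes in all 12 libraries. Ucp2 and Ucp3 lie next to each other on the plus strand of chromosome 7, Ucp3 at chr7:100472990-100486432 and Ucp2 at chr7:100493337-100502020, with 6904 bases between them. They are shown together here, as the 250 bases before the start of each gene (RefSeq, GRCm38.p6, plus strand, 5′ to 3′), because the levels of these neighbours moved in opposite directions. These starts are those of RefSeq, and the windows of Ucp2 and Ucp3 reach 21 bases and 1 base into the GENCODE gene positions. The Ucp2 window is chr7:100493108-100493357 and the Ucp3 window chr7:100472741-100472990, and capitals mark matches to the motifs searched.
Ucp2: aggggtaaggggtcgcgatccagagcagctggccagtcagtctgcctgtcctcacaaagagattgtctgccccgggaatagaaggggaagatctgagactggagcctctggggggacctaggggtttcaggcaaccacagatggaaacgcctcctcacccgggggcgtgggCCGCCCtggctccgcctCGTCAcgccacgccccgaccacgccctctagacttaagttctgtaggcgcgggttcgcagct
Ucp3: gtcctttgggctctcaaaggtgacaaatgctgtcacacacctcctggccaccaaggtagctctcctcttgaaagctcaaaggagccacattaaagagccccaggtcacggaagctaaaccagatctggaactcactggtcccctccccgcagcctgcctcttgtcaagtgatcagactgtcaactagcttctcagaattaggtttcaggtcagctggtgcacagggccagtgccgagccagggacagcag
The Ucp2 window was 63.6% G and C and the Ucp3 window 54.8%, against a median of 52.4% over 32851 promoters. Searched on both strands were the TATA box (TATAAA), the CCAAT box (CCAAT), the GC box (GGGCGG), the cAMP response element (TGACGTCA) and its first bases alone (TGACG, which also lies inside the whole element), an E-box (CACGTG) and the element TNAAGGTCA of estrogen-related receptors. In Ucp2, a GC box read on the minus strand began 79 bases before the start and a TGACG read on the minus strand began 62 bases before it, while none of these letters occurred in the Ucp3 window. Of all promoters of this length, 32.7% held the GC box and 17.8% TGACG, so that such matches are common.

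Ucp2 rose with the high-fat diet. The ND replicates had 47.5, 109 and 128 FPKM of Ucp2. Those of the HFD group had 708, 536 and 717 FPKM. All HFD libraries were above all ND libraries, with means of 654 ± 102 and 94.9 ± 42.2 FPKM (SD, n = 3). This was a log2 fold change of 2.88 (SE 0.46, limma adjusted p = 0.0470), and 2.45 (SE 0.18, adjusted p = 0.00164) without ND replicate 1. The labels name nothing that libraries of the same replicate number share. With that number as a block, the adjusted p was 0.144 and the call was lost. It was also lost without each one of the other 5 libraries, at adjusted p values of 0.0982 to 0.336 and log2 fold changes of 2.80 to 3.15. Ucp2 was the 1 gene called among the 8 that passed the filter, where 1.77% of all tested genes were called. It was also the only one of the 8 without overlap between HFD and ND, as were 26.4% of all tested genes. The gene shares bases with Dnajb13 on the opposite strand, and the library kit kept no strand, so reads in the shared bases cannot be assigned with certainty. Dnajb13 stood at 255 FPKM in ND replicate 1 and at 4.85 to 15.4 FPKM elsewhere.

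Under TJ, Ucp2 was lower than under the HFD alone. The TJ replicates had 354, 211 and 307 FPKM, all below the lowest HFD library at 536 FPKM. Their mean was 291 ± 72.6 FPKM (SD, n = 3), and the log2 fold change against HFD was −1.19 (SE 0.23, limma adjusted p = 0.0268). The TJ libraries remained above the ND libraries, whose highest value was 128 FPKM. Under GT the replicates had 676, 481 and 321 FPKM and spanned the range between TJ and HFD. The fold change of GT against HFD was −0.46 on the log2 scale, with a 95% interval of −1.10 to 0.18 (limma adjusted p = 0.296). Neither did TJ and GT differ past the threshold, at a log2 fold change of −0.73 with an interval of −1.44 to −0.01 (limma adjusted p = 0.199).

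Ucp3 ran the other way. Under the HFD alone, the replicates had 14.9, 16.5 and 12.6 FPKM of Ucp3. The TJ replicates had 33.6, 44.4 and 32.4 FPKM. The GT replicates had 23.9, 32.1 and 41.1 FPKM. Every TJ and GT library was above every HFD library, and TJ and GT overlapped each other. The group means were 14.7 ± 1.96 FPKM for HFD, 36.8 ± 6.62 FPKM for TJ and 32.4 ± 8.62 FPKM for GT (SD, n = 3). Ucp3 rose by 1.26 on the log2 scale under TJ (SE 0.17, limma adjusted p = 0.0196) and by 1.07 under GT (SE 0.20, limma adjusted p = 0.0433). The difference of TJ from GT was 0.20 on the log2 scale, with an interval of −0.32 to 0.71 (limma adjusted p = 0.566).

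The 2 calls under TJ, Ucp2 and Ucp3, were made among 6 of the 10 genes that passed the filter, where 18.5% of all tested genes were called, and the 1 call under GT was made among 7, where 3.63% were called. TJ and HFD did not overlap for 3 of the 6 genes, Cox7a1 being the other, against 51.5% of all tested genes, and GT and HFD for 1 of the 7, against 36.7%. Both calls under TJ were lost without HFD replicate 1, 2 or 3 or TJ replicate 1. In those fits the adjusted p was 0.0596 to 0.116 for Ucp2, at log2 fold changes of −1.34 to −1.11, and 0.0512 to 0.111 for Ucp3, at 1.17 to 1.35. They were lost too with all 12 libraries in the fit, at adjusted p values of 0.181 for Ucp2 and 0.460 for Ucp3, but not with the 11 libraries left without ND replicate 1, at 0.0157 and 0.00639. The call of Ucp3 under GT was lost without any one HFD library, GT replicate 2 or GT replicate 3, at adjusted p values of 0.0673 to 0.180 and log2 fold changes of 0.88 to 1.15, and with all 12 libraries in the fit, at 1.00, but not with 11, at 0.0433. The replicate numbers did not pair the libraries of these groups.

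In the ND group, Ucp3 differed most in the library that stood apart. It was 2.57 FPKM in ND replicate 1, the lowest of all 12 libraries, and 41.5 and 47.0 FPKM in ND replicates 2 and 3. With all ND libraries the log2 fold change of HFD against ND was −0.32 (SE 1.03, limma adjusted p = 0.875). Without ND replicate 1 it was −1.54 (SE 0.16, limma adjusted p = 0.00427), and all HFD libraries lay below both ND libraries. With the replicate block as well, the fold change was −1.55 at an adjusted p of 0.0568 and the call was lost, while that of Ucp2 was kept at 2.38 (adjusted p = 0.0212). Without the block, 2 of 8 genes were called, Ucp2 higher and Ucp3 lower, where 15.4% of all tested genes were called. HFD and ND did not overlap for 4 of 8, Ppargc1a and Cox7a1 included, against 47.2%. Ppargc1a passed the filter only through the ND libraries, which favours such a separation. TJ replicate 2, at 44.4 FPKM, lay between the 2 remaining ND libraries, and the other TJ libraries below them.

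The ratio of Ucp2 to Ucp3 was higher in every HFD library than in any GT or TJ library, and GT and TJ overlapped. It was 47.5, 32.5 and 56.9 in the HFD replicates. It was 10.5, 4.76 and 9.48 under TJ, and 28.3, 15.0 and 7.79 under GT. Of the ND libraries, ND replicates 2 and 3 had the lowest ratios of all, 2.62 and 2.73, whereas ND replicate 1 had 18.5.

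**Figure D2:**
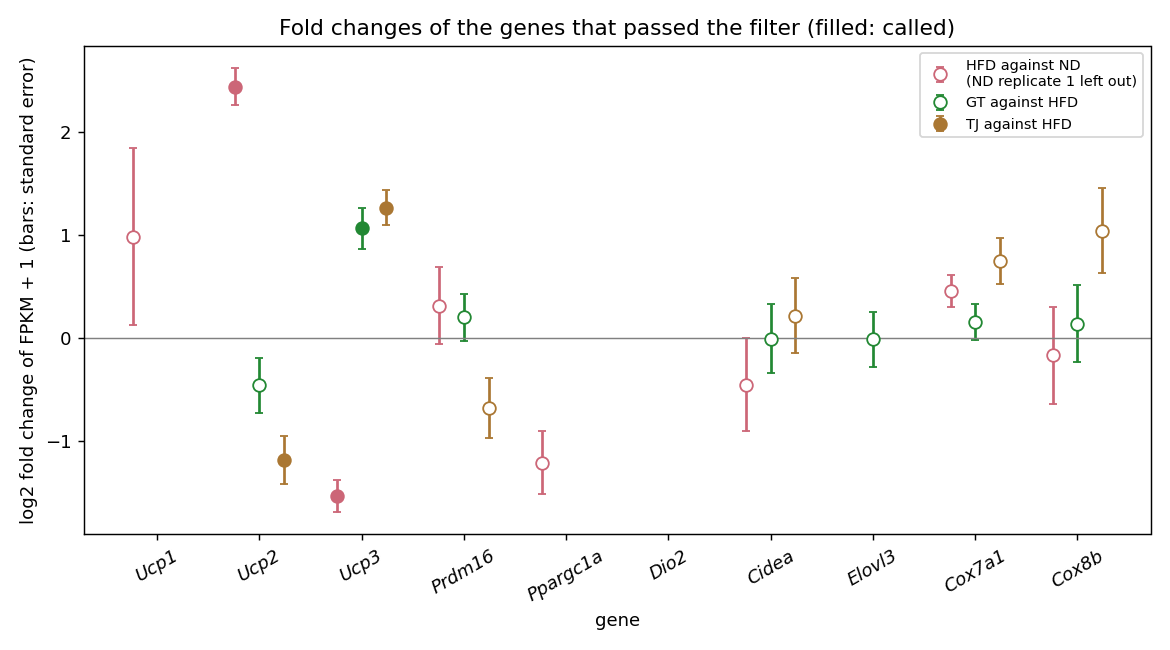
log2 fold changes of FPKM + 1 for each gene that passed the filter, for HFD against ND without ND replicate 1, GT against HFD and TJ against HFD. Bars are standard errors and filled points were called. Ucp2 and Ucp3 were called in opposite directions in HFD against ND and in TJ against HFD, and Dio2 passed the filter in none of the 3 comparisons.

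Markers of the cells of the tissue moved with these genes. Summed over 10 macrophage markers, FPKM was 3825 to 5370 in the HFD libraries, 1404 to 3417 under GT, 753 to 2564 under TJ, and 443 and 569 in ND replicates 2 and 3. Under TJ, 7 of the 10 markers were called lower, where 18.5% of all tested genes were called, and 5 with the trend on transcript length removed. These calls, and those of adipocyte markers under TJ given next, were lost without HFD replicate 1, 2 or 3 or TJ replicate 1. They were lost with all 12 libraries in the fit too. Under GT, limma called 0 of the 10, although all 10 had an unadjusted p under 0.05. The 10 adipocyte markers summed to 20587 to 22172 FPKM in the HFD libraries and to 32320 to 60737 FPKM under TJ, where 6 of the 10 were called higher, and to 27088 to 32457 FPKM under GT, where 2 of the 10 were. Most of this sum is Fabp4, 48299 of 60737 FPKM in TJ replicate 2, and Lep, the leptin gene, went the other way under TJ, at 292 to 825 FPKM against 899 to 1196 FPKM under the HFD alone. In whole tissue, fewer cells of a type and less RNA per cell cannot be told apart, and the part of these cells in the changes of Ucp2 and Ucp3 was not tested.

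Set against these markers, the comparison depended on the marker. Ucp2 per 100 FPKM of the macrophage markers was 14.0, 14.0 and 13.3 in the HFD replicates. It was 13.8, 28.1 and 14.5 under TJ, where replicate 2, with the fewest macrophage transcripts, stood out. Under GT it was 19.8, 16.2 and 22.8, above all HFD libraries. Divided by each macrophage marker alone, Ucp2 overlapped between TJ and HFD for 6 of the 10 markers and was higher in all TJ libraries for 4. Ucp3 per 100 FPKM of Adipoq, the adiponectin gene of mature adipocytes, was 1.45, 1.59 and 1.39 in the HFD replicates. Under TJ it was 1.40, 1.19 and 1.44, overlapping with HFD, although the FPKM values of Ucp3 did not. Under GT it was 1.90, 1.84 and 1.93, above every HFD and TJ library. In the ND group it was 1.27, 1.49 and 2.57, with the highest of the 12 ratios in replicate 3. Of the 10 adipocyte markers, 3 (Adipoq, Fabp4 and Lipe) gave ratios that overlapped between TJ and HFD, whereas for the other 7 every TJ library was above every HFD library. Of those 7, Plin1, Pnpla2, Slc2a4 and Cidec were themselves higher under TJ without overlap, and Lep was lower. Lpl and Dgat2 overlapped, at 1145 to 2403 and 386 to 651 FPKM under TJ and 2008 to 2866 and 516 to 555 FPKM under HFD. A rise of Ucp3 alone lifts its ratio to a marker that does not rise. Per 100 FPKM of Plin1, a lipid droplet coat protein gene, Ucp3 was 3.69 to 5.25 in the HFD libraries and 6.00 to 6.67 under TJ. Under GT the ratio was above HFD without overlap for 6 of the 10 markers. These ratios are descriptions and were not tested.

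**Figure D3:**
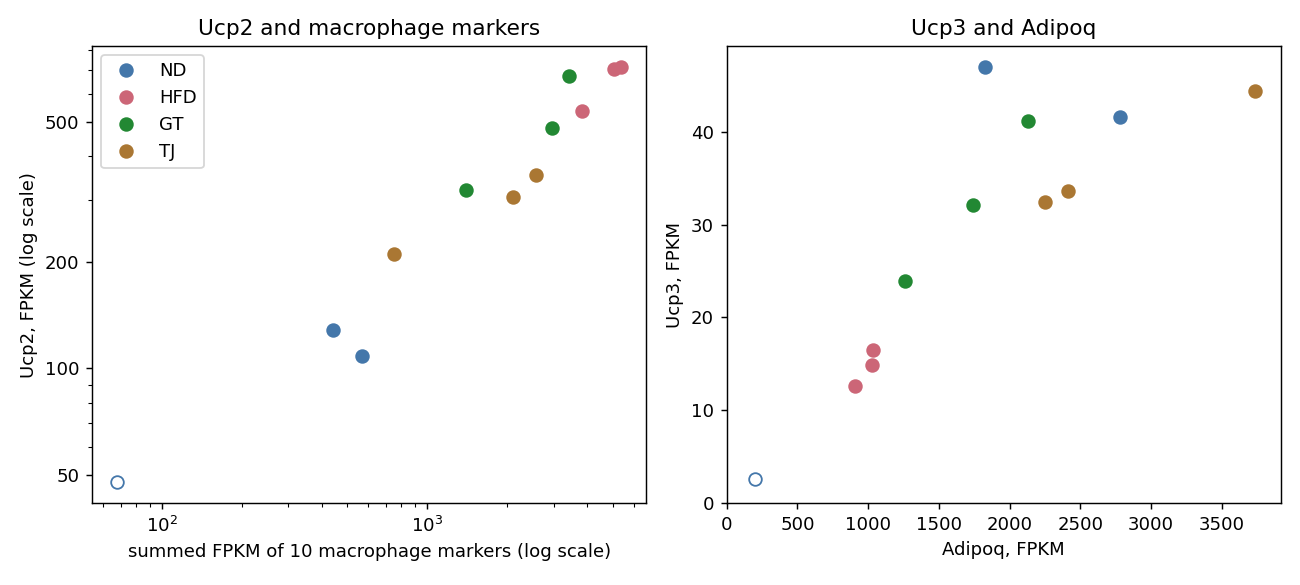
Left, Ucp2 FPKM against the summed FPKM of 10 macrophage markers, both on log scales; right, Ucp3 FPKM against Adipoq FPKM. Points are the 12 libraries coloured by group, and the open point is ND replicate 1. The HFD libraries hold the highest macrophage sums, 3825 to 5370 FPKM, and, ND replicate 1 aside, the lowest Ucp3 values, 12.6 to 16.5 FPKM.

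The genes whose log2(FPKM + 1) followed Ucp2 most closely over the 12 libraries, among 13935 genes that averaged 1 FPKM or more, were Coro1a (Pearson r = 0.992), an actin-binding protein of leukocytes, P2ry6 (r = 0.992), a nucleotide receptor, and Selplg (r = 0.991), the P-selectin ligand of leukocytes. For Ucp3 they were Csad (r = 0.992), Acad12 (r = 0.99) and Dcaf8 (r = 0.989). These libraries share their group means and ND replicate 1, and without that library the closest genes were others, Abcg1 (r = 0.999), which exports cholesterol from macrophages and other cells, Rnh1 and Nrros (both r = 0.992) for Ucp2, and Cyp2e1 (r = 0.987), Podxl (r = 0.985) and Mcam (r = 0.981) for Ucp3.

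Of the regulators of browning, Prdm16 (chr4:154316125-154636873, minus strand), which marks the brown and beige lineage, had its lowest mean under TJ, at 1.85 ± 0.743 FPKM (SD, n = 3). The TJ replicates had 1.39, 1.45 and 2.70 FPKM of Prdm16. Those under GT had 3.88, 4.45 and 4.07 FPKM. Prdm16 was at 2.12, 4.4 and 4.28 FPKM in the HFD replicates, and the ND replicates 0.686, 1.83 and 3.55 FPKM. All TJ libraries were below all GT libraries, while TJ and HFD overlapped through HFD replicate 1. The log2 fold change of TJ against GT was −0.88 (SE 0.20, limma adjusted p = 0.101) and that of TJ against HFD −0.68 (SE 0.29, limma adjusted p = 0.126). With the length trend described below removed, these values were −0.58 and −0.37. Without TJ replicate 3, the difference of TJ from GT was −1.08 (limma adjusted p = 0.0489). No gene of the 10 was called in TJ against GT by limma, where 0.148% of all tested genes were called, while 3 of the 6 that passed the filter had an unadjusted p under 0.05, as did 24.6% of all tested genes. TJ and GT did not overlap for Prdm16 and Cox8b, 2 of the 6, against 34.4% of all tested genes.

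Ppargc1a (chr5:51454250-51567726, minus strand) encodes the coactivator that drives mitochondrial biogenesis and the transcription of Ucp1. In ND replicates 2 and 3 it stood at 2.98 and 2.72 FPKM, and in ND replicate 1 at 0.350 FPKM. In the HFD replicates it was 0.677, 0.822 and 0.499 FPKM. Those under GT had 0.535, 0.802 and 0.638 FPKM, and the TJ replicates 0.479, 0.566 and 0.910 FPKM. Ppargc1a thus lay under 1 FPKM in all 9 libraries on the high-fat diet, with overlapping groups whose means were 0.666, 0.658 and 0.652 FPKM, and above it in 2 ND libraries alone. Against ND, where it passed the filter only through the ND libraries, the log2 fold change of HFD was −0.71 (SE 0.51, limma adjusted p = 0.518) with all ND libraries. Without ND replicate 1 it was −1.21 (SE 0.31, limma adjusted p = 0.0565).

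Dio2 (chr12:90724552-90738438, minus strand) encodes the deiodinase that makes active thyroid hormone inside brown adipocytes. It was under 1 FPKM in every library and passed no filter. The HFD replicates had 0.216, 0.235 and 0.438 FPKM and the TJ replicates 0.148, 0.0411 and 0.0986 FPKM, so that TJ lay below HFD without overlap, at about 3.88 to 14.6 fragments a library against 20.4 to 36.0. The GT replicates, with 0.356, 0.206 and 0.114 FPKM, overlapped both. The ND replicates had 0.755, 0.0107 and 0.174 FPKM, ND replicate 1 being the highest of all 12.

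Elovl3 (chr19:46131897-46135694, plus strand), a fatty acid elongase induced in brown fat by cold, was likewise low. Its levels were 0.844, 1.27 and 1.75 FPKM in the HFD replicates. The ND replicates had 0.220, 0 and 0.0354 FPKM. The TJ replicates had 0.422, 0.172 and 0.515 FPKM, and the GT replicates 1.52, 1.59 and 0.707 FPKM. HFD lay above ND and TJ without overlap and overlapped with GT. The gene passed the filter only in GT against HFD, at a log2 fold change of −0.01 with an interval of −0.65 to 0.62 (limma adjusted p = 0.978). It shares bases with Pitx3 on the opposite strand, which stood at 0.0484 to 0.538 FPKM.

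Cidea encodes a lipid droplet protein that is abundant in brown adipocytes and scarce in white ones. It was 13.6 FPKM in ND replicate 1 and 2.92 and 3.82 FPKM in ND replicates 2 and 3. The HFD replicates had 2.55, 0.878 and 3.81 FPKM. The GT replicates had 2.11, 1.97 and 2.42 FPKM, and the TJ replicates 2.42, 3.75 and 2.1 FPKM. The groups overlapped wherever they were compared. The log2 fold change was 0.22 for TJ against HFD, with an interval of −0.65 to 1.08 (limma adjusted p = 0.662), and −0.01 for GT against HFD, with an interval of −0.81 to 0.79 (limma adjusted p = 0.992). Cidea shares bases with B430212C06Rik on the opposite strand, which stood at 3.16 to 7.22 FPKM in the libraries on the high-fat diet, above Cidea in most of them, so that its low values cannot be assigned with certainty. Its relative Cidec, which enlarges the droplets of white adipocytes, rose by 0.70 under TJ (SE 0.20, limma adjusted p = 0.0492), a call lost with the trend on transcript length removed, at 0.48 (adjusted p = 0.132). Outside ND replicate 1, where it was 6.93%, Cidea made up at most 0.224% of the summed FPKM of Cidea and Cidec.

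Among the subunits of cytochrome c oxidase, the last complex of the respiratory chain, COX7A1 and COX8B are the forms of muscle and brown fat, and COX7A2 and COX8A the forms of most other tissues. Both genes lie on chromosome 7, Cox7a1 at chr7:30184144-30186078 (plus strand) and Cox8b at chr7:140898945-140900446 (minus strand). Their 250 bases before the start are shown because, of the genes followed here, these were the browning markers with the highest levels in eWAT. Capitals are as above, with Cox7a1 from chr7:30183921-30184170 (plus strand) and Cox8b from chr7:140900447-140900696 (minus strand). The Cox7a1 window reaches 27 bases into the GENCODE gene.
Cox7a1: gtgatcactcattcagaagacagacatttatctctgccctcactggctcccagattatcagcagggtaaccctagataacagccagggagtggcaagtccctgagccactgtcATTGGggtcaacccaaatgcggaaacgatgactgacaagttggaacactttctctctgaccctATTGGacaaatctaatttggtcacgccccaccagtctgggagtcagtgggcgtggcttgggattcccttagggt
Cox8b: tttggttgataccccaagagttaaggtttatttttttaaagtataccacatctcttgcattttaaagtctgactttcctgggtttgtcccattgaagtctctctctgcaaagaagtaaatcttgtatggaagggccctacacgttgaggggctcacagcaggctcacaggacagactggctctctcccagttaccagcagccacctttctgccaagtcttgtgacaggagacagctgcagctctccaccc
The Cox7a1 window held a CCAAT box on the minus strand at 137 and again at 74 bases before the start, a motif found in 33.8% of all promoters, and the Cox8b window held none of the letters searched. G and C made up 51.2% and 47.2% of their bases.

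Cox7a1 stood at 22.6, 31.4 and 16.7 FPKM in the TJ replicates. Under the HFD alone they had 13.8, 12.0 and 13.9 FPKM. All TJ libraries were above all HFD libraries, and the log2 fold change of 0.75 (SE 0.22) had a limma adjusted p of 0.0535, just outside the threshold. It was past it in the quantile-normalized values, without TJ replicate 3 and with 11 libraries in the fit, the lowest adjusted p being 0.0277. The GT replicates had 16.7, 17.4 and 11.1 FPKM and overlapped with HFD, at a log2 fold change of 0.16 with an interval of −0.25 to 0.57 (limma adjusted p = 0.564). The ND replicates had 34.7, 10.4 and 8.35 FPKM, the first again being the library rich in germ cell transcripts.

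Cox8b stood at 30.2, 53.4 and 30.7 FPKM in the TJ replicates. Under the HFD alone they had 15.2, 10.4 and 32.3 FPKM. HFD replicate 3, the library with 5.05 FPKM of Ucp1, lay inside the range of TJ, and the other HFD libraries lay below it. The log2 fold change of TJ against HFD was 1.04 (SE 0.41, limma adjusted p = 0.104). The GT replicates had 23.5, 18.9 and 15.9 FPKM, all below the TJ libraries, and the ND replicates 40.1, 22.4 and 17.2 FPKM. TJ against GT gave a log2 fold change of 0.90 (SE 0.25, limma adjusted p = 0.126), which was 0.17 with the trend on transcript length removed.

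Neither subunit gene was called in HFD against ND. Cox7a1 had a log2 fold change of −0.14 (SE 0.55, limma adjusted p = 0.897) with all ND libraries and of 0.46 (SE 0.16, limma adjusted p = 0.119) without ND replicate 1, where all HFD libraries lay above both ND libraries. For Cox8b these were −0.50 (SE 0.52, limma adjusted p = 0.623) and −0.17 (SE 0.47, limma adjusted p = 0.828), with overlapping groups. With all ND libraries and the length trend removed, the sign changed, to 1.39 for Cox7a1 and 1.22 for Cox8b. Prdm16 and Cidea were not called in HFD against ND either, at 0.68 and −1.03 with all ND libraries (limma adjusted p = 0.516 and 0.498) and at 0.32 and −0.45 without ND replicate 1 (limma adjusted p = 0.601 and 0.545).

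The common forms of both subunits were called higher under TJ, but not once the trend on transcript length was removed. Cox8a rose by 1.25 on the log2 scale under TJ (SE 0.31, limma adjusted p = 0.0393) and Cox7a2 by 1.20 (SE 0.29, limma adjusted p = 0.0361). With the length trend removed, these values were 0.86 (adjusted p = 0.10) and 0.80 (adjusted p = 0.0970). Cox8b made up 5.25%, 4.29% and 11.6% of the summed FPKM of Cox8a and Cox8b in the HFD replicates and 5.17%, 5.22% and 7.21% under TJ, with overlapping groups. Cox7a1 made up 18.7%, 18.4% and 19.6% of Cox7a1 and Cox7a2 in the HFD replicates and 16.0%, 13.1% and 15.5% under TJ, so that the share of the form of muscle and brown fat was lower in every TJ library than in any HFD library. In ND replicates 2 and 3 it was 9.51% and 11.05%.

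The transcripts of both genes are short, at most 485 nt for Cox7a1 and 360 nt for Cox8b, against a median of 3288 nt for the longest transcripts of the tested genes. With the fold changes corrected for their trend on transcript length, TJ against HFD came to 0.38 for Cox7a1 and 0.72 for Cox8b on the log2 scale. Of the skeletal muscle markers, 9 of 10 were in the table, and they summed to 28.9 to 35.2 FPKM under TJ and 23.3 to 26.3 FPKM under HFD. The defining ones were near 0, with Ckm at most 1.95 FPKM and Myh1, Myh2 and Myh4 at most 0.294 FPKM in the 12 libraries, while Actn3 reached 12.6 FPKM in ND replicate 1. Most of the sum came from Myl1, a myosin light chain gene, at 25.0, 30.6 and 18.3 FPKM under TJ and 14.4, 13.9 and 12.1 FPKM under HFD, and from Pvalb, at 8.89, 1.86 and 8.16 FPKM under TJ and 8.25 to 10.8 FPKM under HFD, a log2 fold change of −0.77 (limma adjusted p = 0.239). Myl1 was called higher under TJ, at a log2 fold change of 0.80 (limma adjusted p = 0.0375), 1 of the 2 muscle markers that passed the filter, and at 0.46 (adjusted p = 0.142) with the length trend removed, and its part in the values of Cox7a1 and Cox8b was not tested.

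**Figure D4:**
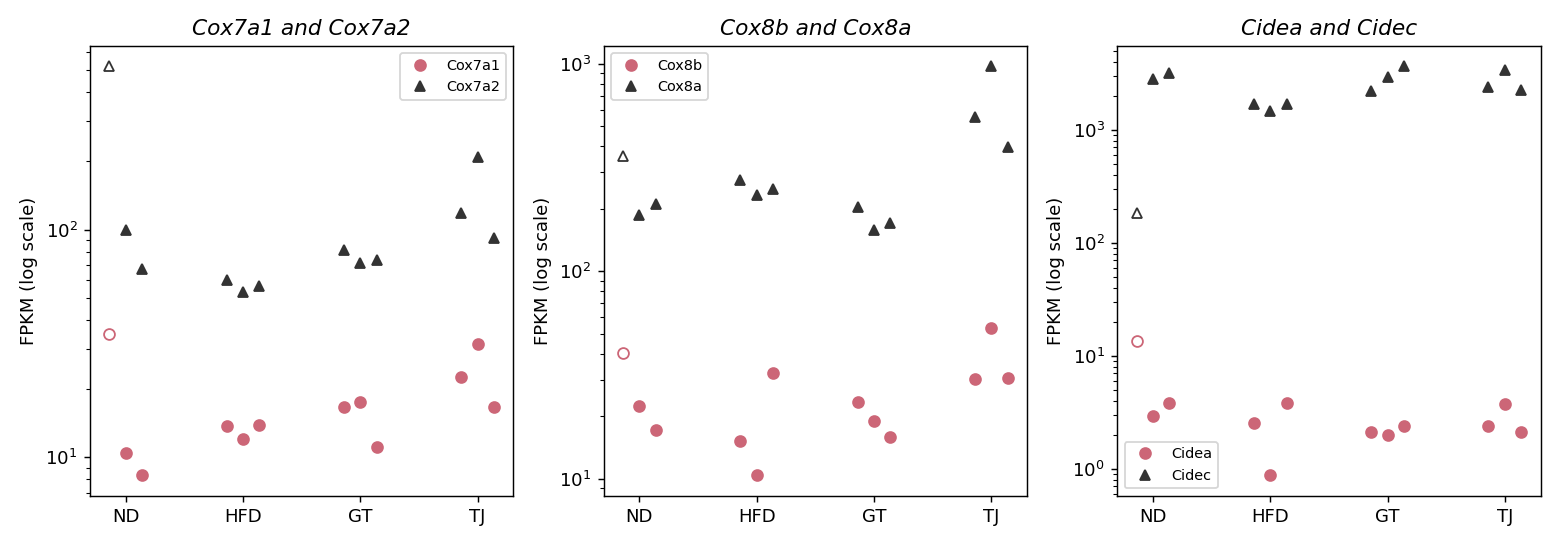
FPKM on a log scale of Cox7a1 with Cox7a2, Cox8b with Cox8a, and Cidea with Cidec in each library, by group. Circles are the genes of brown fat, triangles their relatives, and open symbols ND replicate 1. Under TJ, Cox8a reached 395 to 970 FPKM, above its values in all other libraries, and Cidea stayed far below Cidec.

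In their patterns over the 12 libraries, the genes close to Cox7a1 included Fis1 (r = 0.978) and Lamtor4 (r = 0.969), and Cox8b was closest to Tbc1d10c (r = 0.888), Snu13 (r = 0.869) and Psmb1 (r = 0.857). Prdm16 was closest to Nfic (r = 0.935), Iqsec1 (r = 0.932) and Dnajb12 (r = 0.931), and Cidea to Trmt1 (r = 0.931), Fars2 (r = 0.928) and Igfbp2 (r = 0.926). Without ND replicate 1, Lamtor4 was again among the 3 genes closest to Cox7a1 (r = 0.970), whereas the 3 closest to Cox8b, Prdm16 and Cidea were others.

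The genes around this program were counted in 4 lists, whose counts are to be read against the 18.5% of all tested genes called in TJ against HFD, 3.63% in GT against HFD, 1.77% in HFD against ND and 15.4% there without ND replicate 1. In TJ against HFD, limma called 0 genes of the whole table without HFD replicate 1, 2 or 3 or TJ replicate 1, where 3732 to 4735 had an unadjusted p under 0.05, and 1 gene, of none of these lists, with all 12 libraries in the fit. Every call of a list, relative or marker gene given here for that comparison was lost there. Without the filter, 382 of 20343 tested genes were called. Among them were 1 of the 14 receptors and hormones, 1 of the 21 other brown and beige markers and 0 of the other lists and the relatives. The list calls of GT against HFD, all higher, were lost without any one HFD library, GT replicate 2 or GT replicate 3. They were lost with all 12 libraries in the fit too, where 1 gene of the table was called, in the lower direction. Of 14 receptors and hormones upstream of thermogenesis, 12 passed the filter in TJ against HFD, with 3 called higher, 0 called lower and a median log2 fold change of 0.55, against −0.14 over all tested genes. Adrb3, the beta-3 adrenergic receptor of adipocytes, had 249, 616 and 274 FPKM in the TJ replicates and 92.0, 56.9 and 41.4 FPKM in the HFD replicates. Its log2 fold change was 2.51 (SE 0.41, limma adjusted p = 0.0240). Also called were the adenosine receptor Adora2a, at 1.14, and the natriuretic peptide receptor Npr1, at 0.75. Under GT, the hormone gene Fgf21 (0.96, at 0.669 to 1.05 FPKM under the HFD alone and 2.18 to 2.96 FPKM under GT, through which it passed the filter) and the thyrotropin receptor Tshr (0.77) were called higher among 12, at a median of 0.37 against −0.12 over all tested genes. In HFD against ND without ND replicate 1, 4 of 12 were called, all lower, namely Adrb3 (−2.33), the FGF21 co-receptor Klb (−1.86), Tshr (−0.97) and the thyroid hormone receptor Thra (−0.72), with a median of −0.46. With the replicate block in that fit, 2 of the 12 were called, and the calls given below without ND replicate 1 for the other lists and for the relatives were lost.

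The transcriptional regulators, 20 of whose 21 genes were in the table, showed no call in TJ against HFD among the 18 tested by limma, of which 4 had an unadjusted p under 0.05, where 41.4% of all tested genes did, and their median log2 fold change was −0.00. Under GT, 1 of 20 was called, Zfp423 (1.08), a regulator of white adipocyte identity. In HFD against ND without ND replicate 1, Cebpb (1.25) and Esrra (0.66) were called higher and Irf4 (−1.28) and Ebf2 (−1.14), which act with PGC-1alpha and early in brown fat, respectively, were called lower among 20.

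Other markers of brown and beige fat were called in both directions under TJ. Of 21 genes, 14 passed the filter, with a median log2 fold change of −0.51, 1 called higher and 4 called lower. The lipid droplet protein gene Plin5 rose by 1.45, with 16.6, 29.6 and 13.5 FPKM in the TJ replicates and 6.63, 6.00 and 6.10 FPKM in the HFD replicates. The genes called lower were the glycerol kinase gene Gyk (−1.67), the fatty acid binding protein gene Fabp3 (−1.49), the carnitine palmitoyltransferase gene Cpt1b (−1.23) and the acyl-CoA thioesterase gene Acot11 (−1.18). Fabp3, at 0.169 to 0.306 FPKM under TJ and 1.57 to 3.40 FPKM under HFD, and Acot11, at 0.464 to 1.25 and 2.90 to 3.79 FPKM, passed the filter through the HFD libraries. Fabp3 was also far highest in ND replicate 1, at 68.8 FPKM, and at 4.02 FPKM in ND replicate 3, the library with the next highest sum of germ cell markers, against at most 3.40 FPKM elsewhere. Cpt1b likewise had 84.7 FPKM in ND replicate 1, 17.4 FPKM in ND replicate 3 and at most 8.81 FPKM elsewhere. The germ cell markers had a median log2 fold change of −3.46 in TJ against HFD over the 9 tested, of which limma called 0 and 4 had an unadjusted p under 0.05, and their part in these calls was not tested. Under GT, Plin5 alone was called (1.33) among 13. In HFD against ND, Otop1 was called higher with all ND libraries (2.31), and without ND replicate 1 Otop1 (2.41), Epsti1 (0.85) and Slc36a2 (0.81) were called higher among 14. Otop1, at 0.104 to 0.409 FPKM in the ND libraries and 4.29 to 6.30 FPKM under HFD, passed the filter through the HFD libraries, and its call with all ND libraries was lost without any one of the other 5 libraries.

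Genes of heat production without UCP1, by creatine cycling, calcium cycling or the ADP/ATP carriers, were also called in both directions under TJ. Of 12 genes, 8 passed the filter in TJ against HFD, with a median log2 fold change of −0.77, 5 called lower and 1 called higher. Over all tested genes, 1417 were called lower and 949 higher, and with median-of-ratios scaling 1085 lower and 1285 higher. The creatine transporter gene Slc6a8 was at 37.6, 20.0 and 35.8 FPKM in the TJ replicates and 75.9, 72.2 and 90.0 FPKM in the HFD replicates, a log2 fold change of −1.37 (SE 0.25, limma adjusted p = 0.0248). The creatine synthesis gene Gatm (−1.33), the creatine kinase gene Ckb (−1.21), the calcium pump gene Atp2a2 (−0.86) and the carrier gene Slc25a5 (−0.69) were also called lower, and the carrier gene Slc25a4 (0.61) higher. The call of Slc25a4 was lost with the length trend removed, at 0.43 (limma adjusted p = 0.125). Under GT, limma called 0 of the 8, although 7 had an unadjusted p under 0.05, where 29.3% of all tested genes did, at a median of −0.45. In HFD against ND without ND replicate 1, Gatm was called higher (1.30) among 8. In TJ against GT, limma called none of the genes of these 4 lists, of which 4, 4, 4 and 3 had an unadjusted p under 0.05. Macrophage markers fell in the same comparison of TJ with HFD, as given above, and their part in these lists was not tested.

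**Figure D5:**
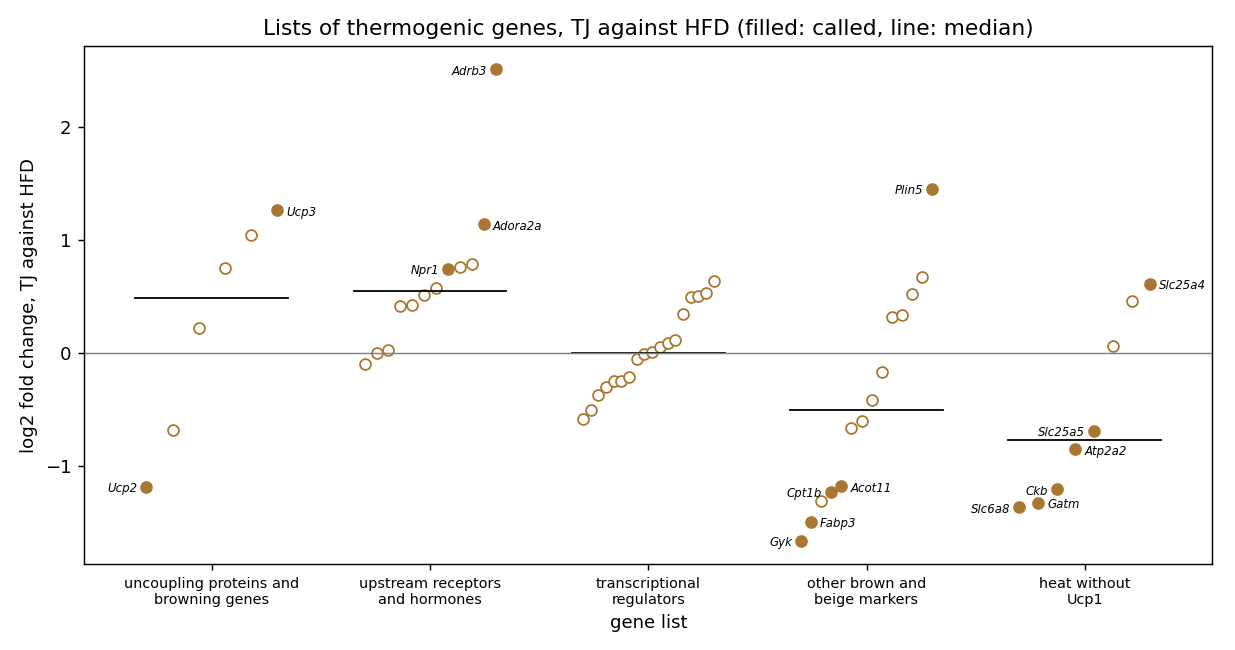
log2 fold changes of TJ against HFD for the genes of each list that passed the filter, sorted within the list. Filled points were called and carry their symbols, and black lines are list medians, which lie at 0.48 for the uncoupling protein and browning genes, 0.55 for the upstream receptors and hormones, −0.00 for the regulators, −0.51 for the other brown and beige markers and −0.77 for the genes of heat without UCP1. The first median rests on 6 of the 10 genes. Ucp1, Ppargc1a, Dio2 and Elovl3 lay under the filter, and none had a higher mean under TJ than under HFD. The length trend was not removed from these values.

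Close relatives of the 10 genes were called in TJ against HFD for 6 of the 15 that passed the filter, of 21 in the list, where 18.5% of all tested genes were called. Higher were Cox8a, Cox7a2, Cidec and Cox6a1 (1.11), and lower were the elongase gene Elovl6 (−1.32) and the coactivator gene Pprc1 (−0.77). All 6 of these calls were lost with the length trend removed, at adjusted p values of 0.0503 to 0.141, and Elovl1, not called before, was then the 1 relative called, at −0.65. The log2 fold changes were then −1.10 for Elovl6, −0.60 for Pprc1, 0.86 for Cox8a, 0.80 for Cox7a2, 0.71 for Cox6a1 and 0.48 for Cidec. The 6 calls were lost with the replicate block too, at adjusted p values of 0.0503 to 0.0947 and unchanged fold changes, although the numbers did not pair these libraries. Under GT, limma called 0 of 17 relatives, of which 5 had an unadjusted p under 0.05, where 29.3% of all tested genes did. In HFD against ND without ND replicate 1, Elovl1 was called higher (1.13) and Cidec lower (−0.88).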

How the data were processed

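RNA was extracted from the eWAT of 12 mice, and libraries were made with a TruSeq kit that keeps no strand. According to the labels and methods, the authors mapped the reads with STAR to a genome of Ensembl and computed FPKM with Cufflinks, with noncoding regions masked and with corrections for multiread and fragment bias. The submitters' processing notes name CASAVA 1.8.2, STAR 2.4.0 and Cufflinks 2.1.1. The methods name the human genome, whereas all 23474 identifiers in the table are mouse identifiers. The deposited FPKM values were used as they were, and no read counts were used here.

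Symbols, positions and transcript lengths came from GENCODE on GRCm38, which named 22671 identifiers. Promoter sequences came from RefSeq (GRCm38.p6), where 8 of the 10 genes had an entry. Cidea and Elovl3 had none. Comparisons used limma 3.58.1 under R 4.3.3 (lmFit, eBayes with a trend) on log2(FPKM + 1), the 6 libraries of the groups concerned, no covariates, and genes that averaged 1 FPKM or more. Approximate depth came from the steps between low FPKM values over 2315 genes with 1 transcript of at least 1500 nt, and gave 9.77M to 19.5M fragments. It served for description only, and intervals are those of limma. p-values rest on the spread between libraries, 1 for each mouse, which includes counting error.

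Whether replicate numbers pair the libraries was checked by the correlation over genes of each library's deviations from its group mean. HFD against ND gave 0.55, 0.34 and 0.12, each over 0.1, which met the rule for pairing. This is no known pairing, since the labels name nothing the numbers share and the correlation of HFD replicate 3 with ND replicate 2 was 0.63. For the other comparisons at least 1 pair was at or under 0.1.

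Named were all 10 genes, for each with a mean of at least 1 FPKM the 3 genes most correlated with it over 12 libraries, and, of the called genes of each list, the 3 with the largest and the 3 with the smallest log2 fold change. A gene that this rule covers is not reported here. The genes and lists were chosen with earlier results of these data known. Alternatives were a pseudocount of 0.1, no filter, quantile normalization, median-of-ratios scaling, the replicate block, a fit of all 12 libraries, each library left out and no fold threshold. Chosen after the data were seen were 11 libraries in the fit, removal of the length trend by loess (span 0.5), median-of-ratios scaling without ND replicate 1, the replicate block without ND replicate 1 and correlations over 11 libraries. The procedure was tested on simulated data. Tables were made in python 3.11.15 with numpy 2.4.6 and pandas 2.3.3.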

Additional observations from a re-analysis of the deposited data

How the results depend on the processing

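Of 421 values of single genes under the alternatives, for 27 results, 356 kept their direction and side of the threshold, 28 lost the call, 8 gained it and 29 changed sign. The number of the 10 genes called in HFD against ND, 1 as reported, was 0 with a pseudocount of 0.1, without the filter, after quantile normalization and with the replicate block, 2 with median-of-ratios scaling and ND replicate 1 left out, 3 with 11 libraries in the fit (with Ppargc1a, which passes the filter through ND), and 0 to 2 with 1 library left out. In TJ against HFD it was 2 as reported, 1 without the filter, 0 with all 12 libraries in the fit and 0 to 3 with 1 library left out. In GT against HFD it was 1 as reported, 0 without the filter, with all 12 libraries or with the replicate block (Ucp3 adjusted p = 0.10), and 0 to 1 with 1 library left out. In TJ against GT it was 0, and 1 without TJ replicate 3. The cause was not tested. With all 6 libraries the replicate block changed no other call of the 10 genes. Over all genes the number of calls with the block and without it was 0 and 255 in HFD against ND, 1198 and 2366 in TJ against HFD, 5 and 464 in GT against HFD and 18 and 18 in TJ against GT. By the labels, the libraries share only a number.

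No value that changed sign belonged to a result called with all libraries of the groups compared. Ucp3 in HFD against ND, called lower without ND replicate 1, was reversed in 2 of the alternatives. In HFD against ND, with 1 library left out Ucp1 ranged from −0.56 to 0.99, Ucp3 from −1.54 to 0.34 and Cox7a1 from −0.51 to 0.46. Cox8b was 1.22 with the length trend removed, and Cox7a1 was 0.46 with 11 libraries in the fit, 0.43 with the replicate block and ND replicate 1 left out, 0.41 with median-of-ratios scaling and that library left out, and 1.39 with the length trend removed. In TJ against HFD, Cidea ranged from −0.16 to 0.52 with 1 library left out and was −0.12 with the length trend removed. In GT against HFD, Cidea was 0.063 with a pseudocount of 0.1, 0.079 with median-of-ratios scaling, 0.26 after quantile normalization and 0.046 with the length trend removed, and Elovl3 was 0.050 with median-of-ratios scaling and 0.34 after quantile normalization. With 1 library left out, Cidea ranged from −0.39 to 0.29, Prdm16 from −0.059 to 0.34, Cox8b from −0.20 to 0.57 and Elovl3 from −0.16 to 0.18 there. In TJ against GT, with the length trend removed, Cidea was −0.23 and Cox7a1 −0.10. The median of all genes in TJ against HFD moved from −0.14 to −0.01 with median-of-ratios scaling and to 0.03 after quantile normalization, and there Ucp2 fell by 1.04 and 1.48 and Ucp3 rose by 1.40 and 1.35.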
